A study of Mus musculus with 123 samples.

Results

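Cortical RNA of mice kept awake for the first 6 h of the light phase was set against RNA of undisturbed mice at light onset, the moment at which the deprivation began. All libraries labelled as sleep-deprived at study hour 30 (3 animals) and all undisturbed libraries labelled hour 0 or hour 24 (8 animals, both ZT0) were taken, which gave 11 of the 62 RNA libraries, and all 13842 genes of the deposited table were used. Animals were male C57BL/6J mice on a cycle of 12 h light and 12 h dark, without any transgene or drug in the labels, and each library came from the cerebral cortex of 1 mouse. The deprived mice were 11 to 12 weeks old, were kept awake by gentle handling from ZT0 and were collected at ZT6, the end of the deprivation. The labels place all 3 in batch 1, with 4 of the ZT0 animals in batch 1 and 4 in batch 2. Of those in batch 1, T0N5 also has a repeat library labelled batch 2, joined with it in 1 RNA column. Undisturbed mice at ZT6 (5 animals), and mice collected at ZT3 after 3 h of deprivation (3 animals), served for comparison. Because 6 h of clock time also separated the deprived mice from the ZT0 mice, wake and time of day cannot be told apart in that contrast alone, and the level in undisturbed ZT6 mice is given beside it. No group was handled without being kept awake, so handling and wake cannot be told apart in any contrast. The 3 contrasts among the deprived, ZT0 and ZT6 animals share libraries, so their values stand side by side without a comparison of the contrasts.

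Mice are active in the dark and sleep mostly in the light. A mouse at light onset has therefore already been awake for much of the night, and its cortex normally goes on to sleep in the next hours. Wakefulness is known to induce activity-dependent transcription factors, neuropeptides, glucocorticoid targets and chaperones of the endoplasmic reticulum (ER) in the cortex, and sleep to favour RNAs for lipid synthesis.

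The values are log2 RNA levels, log2 of a depth-normalized level plus 0.5, and differences between them are log2 differences. Per the labels, libraries had more than 36000000 mappable reads (median 55000000), but the values carry no counts, so no counting interval was given. In the cell type lists, all 12 excitatory neuron markers were measured and none of them was called. No measured marker of any list was at 0 in the ZT0, ZT6, 3 h or 6 h libraries. That held for the lists of striatum and choroid plexus too, so it does not tell cortex from its neighbours. Of those lists, 7 of 11 and 3 of 10 genes were measured. In bulk tissue, fewer cells of a type and less RNA per cell cannot be told apart. ZT0 animals labelled hour 24 and those labelled hour 0 differed at none of 13842 genes in limma, with 621 at unadjusted p below 0.05.

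After 6 h of added wake, 430 genes were higher than at light onset (3.11% of those tested) and 327 were lower (2.36%), together 5.47%, at an adjusted p below 0.05 in limma. The changes were small: the called genes had a median absolute log2 difference of 0.26, beside a median standard error (SE) of 0.07 over all genes, and 73 of the 757 exceeded 0.5. Against undisturbed mice of the same hour, 16% of genes were higher and 15.6% lower (31.6% in all). From ZT0 to ZT6 in undisturbed mice, 11.2% rose and 11.5% fell (22.7% in all). In the deprived animals every library lay above every ZT0 library for 684 genes (4.94%) and below every ZT0 library for 566 (4.09%). The calls leaned on animal T30S4 most: without it 117 genes rose and 71 fell. Without T30S3 the counts were 276 and 214, and without T30S1 they were 294 and 166. With batch 1 libraries only, 154 genes rose and 99 fell.

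Among the called genes, 5 differed by more than 1 on the log2 scale, and they are named here after their values were seen. Plekhg4 (1.26), Rasd1 (1.22) and Cyr61 (1.04) rose, and Gkn3 (-1.16) and Baiap2l2 (-1.05) fell. All 5 lay outside the naming rule because of their low level. Genes which that rule named for their difference from ZT0 had to be called and free of overlap with the ZT0 libraries. Their lack of overlap below is therefore a condition of naming and no added support. The rule between 3 h and 6 h had the same condition for those groups. The Cyr61 call was marginal in limma (SE 0.32, adjusted p 0.04528). Its lowest deprived animal was at 3.225 and its highest ZT0 animal at 3.202. Rasd1, a small G protein first described as induced by dexamethasone, was at 3.07, 3.17 and 3.58 in the deprived animals and between 1.74 and 2.29 (median 2.07) at ZT0, with no overlap. Gkn3 was at 1.20, 1.22 and 0.56 against 1.85 to 2.39 (median 2.22), and again the groups did not overlap.

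Of the fixed lists, those for ER chaperones, glucocorticoid targets, neuropeptides and activity-dependent genes held the most rising members, and the list of cholesterol synthesis the most falling ones. Lists of postsynaptic (28 genes), presynaptic (25), ribosomal protein (35) and oxidative phosphorylation genes (35) held no called gene at adjusted p below 0.05, with medians of 0.06, 0.01, -0.03 and -0.01. The median over all genes was -0.0013. The voltage-gated potassium channels had 2 of 23 members higher (Kcnf1, 0.19, and Kcnh1, 0.18), and the aminoacyl-tRNA synthetases 1 of 20 (Eprs, 0.13). These 3 calls were lost without T30S4 and without T30S3. The Kcnf1 call was also lost without T30S1, T0N5, J70N1, T0N8 or T0N1, and that of Kcnh1 without T0N3.

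**Figure D1:**
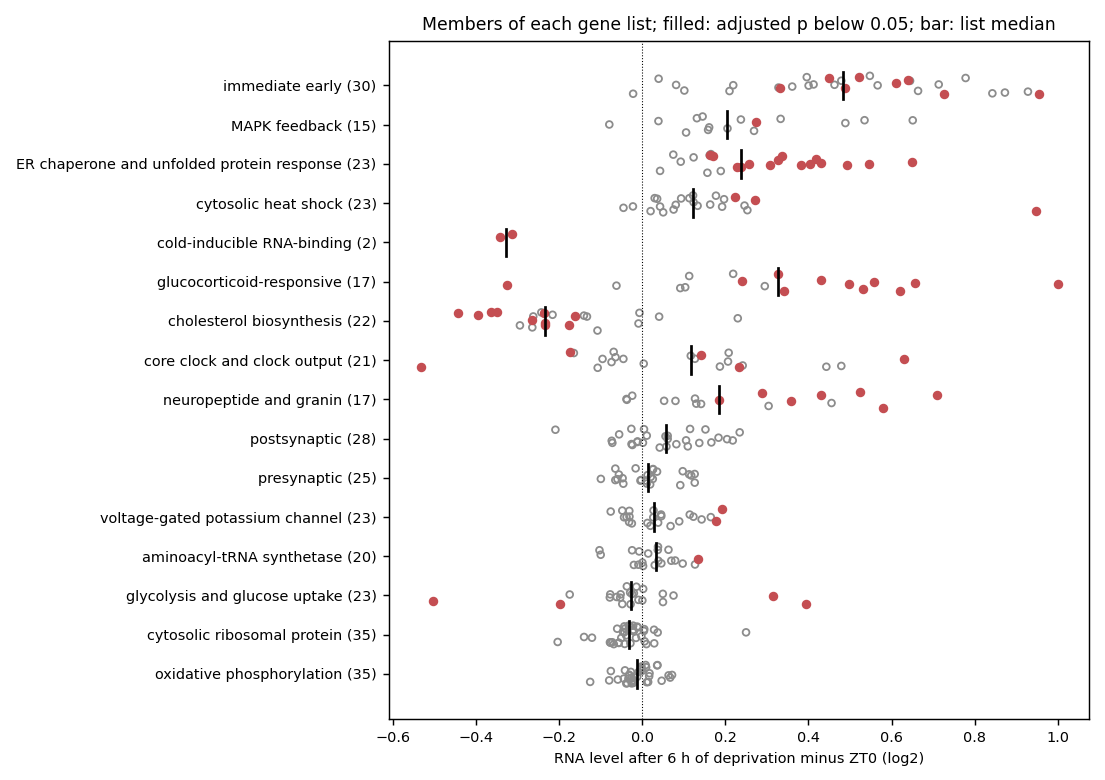
Log2 difference in RNA level between mice deprived for 6 h and ZT0 mice (x axis) for each member of 16 gene lists (y axis, number measured in brackets); filled points passed an adjusted p of 0.05 and black bars are list medians. The ER list has 15 filled points on the right and the cholesterol list 10 on the left, while the postsynaptic, presynaptic, ribosomal protein and oxidative phosphorylation lists have none.

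Of 23 genes of protein folding in the ER, 15 were higher after deprivation than at light onset and none was lower, with a median of 0.24. The list holds chaperones, disulfide isomerases and the sensors of the unfolded protein response, which raises chaperone supply when unfolded protein collects in the ER. Without T30S4 11 were called, and with batch 1 alone 10. The same 23 genes against undisturbed ZT6 mice gave 19 higher with a median of 0.45, and from ZT0 to ZT6 in undisturbed mice 15 fell with a median of -0.15.

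A promoter element of this pathway, the ER stress element (CCAAT, then 9 bases of any kind, then CCACG), was searched on both strands of the RefSeq promoter windows (250 bases before to 50 after the gene start, GRCm38.p6), which matched 10251 of the measured genes. It was found in 8 of the 20 ER genes with a window (40%), among them Calr, Creld2, Dnajc3, Hsp90b1, Hspa5 and Pdia6, which rose, and Canx (0.04, adjusted p 0.7394) and Syvn1 (0.16, adjusted p 0.1607), which did not pass. Over all measured genes 0.156% held it. The windows of 4 risen chaperone genes are shown because they carry the element, given in capitals; in Calr and Creld2 it lies on the opposite strand. No other searched motif overlapped the capitals, and a match is a description of the letters only.
Hspa5 (chr2:34771840-34772139, plus strand): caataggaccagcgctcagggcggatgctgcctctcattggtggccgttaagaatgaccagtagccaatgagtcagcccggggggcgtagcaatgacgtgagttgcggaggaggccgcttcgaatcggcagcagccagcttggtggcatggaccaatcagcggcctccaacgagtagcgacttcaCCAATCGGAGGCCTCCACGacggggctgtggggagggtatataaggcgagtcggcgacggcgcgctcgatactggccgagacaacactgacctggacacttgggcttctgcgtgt
Calr (chr8:84846882-84847181, minus strand): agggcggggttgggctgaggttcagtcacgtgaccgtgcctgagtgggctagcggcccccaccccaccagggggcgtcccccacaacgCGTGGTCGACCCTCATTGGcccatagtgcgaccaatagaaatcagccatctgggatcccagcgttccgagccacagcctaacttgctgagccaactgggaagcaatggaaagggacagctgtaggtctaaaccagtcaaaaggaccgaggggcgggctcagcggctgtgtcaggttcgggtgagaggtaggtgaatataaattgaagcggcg
Pdia6 (chr12:17266339-17266638, plus strand): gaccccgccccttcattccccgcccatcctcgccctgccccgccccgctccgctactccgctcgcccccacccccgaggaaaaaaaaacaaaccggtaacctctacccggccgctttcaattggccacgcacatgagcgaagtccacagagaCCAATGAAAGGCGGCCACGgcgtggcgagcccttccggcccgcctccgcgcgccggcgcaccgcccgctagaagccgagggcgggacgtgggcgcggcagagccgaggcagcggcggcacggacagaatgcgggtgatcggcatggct
Creld2 (chr15:88819396-88819695, plus strand): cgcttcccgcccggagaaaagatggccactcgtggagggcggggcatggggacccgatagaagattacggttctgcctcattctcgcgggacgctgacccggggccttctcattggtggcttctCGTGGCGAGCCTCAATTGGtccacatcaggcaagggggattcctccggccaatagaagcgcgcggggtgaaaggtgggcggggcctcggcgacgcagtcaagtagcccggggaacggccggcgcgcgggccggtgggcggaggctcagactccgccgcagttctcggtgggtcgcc

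Hspa5 encodes BiP, the main Hsp70 chaperone of the ER, and its element lies at positions -65 to -47 from the gene start. Its RNA level was 8.05, 7.92 and 7.96 in the deprived mice and 7.16 to 7.66 (median 7.39) at ZT0. All deprived animals lay above all ZT0 animals, a 1.46-fold difference (log2 0.55, SE 0.12, adjusted p 0.002681). Undisturbed mice at ZT6 averaged 6.93, so Hspa5 stood further from the level of that hour (log2 1.04).

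Creld2, an ER protein with disulfide isomerase activity, was at 4.64, 4.57 and 4.59 against 3.89 to 4.30 (median 4.07), again without overlap. It was 1.41-fold higher (log2 0.49, adjusted p 0.0004471). Calr, the calcium-binding lectin chaperone calreticulin, was at 8.92, 8.89 and 8.93 against 8.51 to 8.71 (median 8.57), a small rise of 0.34 with no overlap (adjusted p 0.002431). Hyou1, an ER chaperone of the Hsp110 class, rose by 0.42 (adjusted p 3.014e-05). Its levels of 6.12, 6.04 and 6.09 all exceeded the ZT0 range of 5.55 to 5.82. Sdf2l1, a partner of BiP, was at 4.71, 4.49 and 4.58 against 3.68 to 4.16 (median 3.95), and its rise of 0.65 was the largest of the list. Manf, a secreted neurotrophic protein retained in the ER, rose by 0.40, Pdia6, a disulfide isomerase, by 0.38 and Dnajb11, a cochaperone of BiP, by 0.33.

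Atf6, the membrane-bound transcription factor that senses ER load, was at 5.29, 5.46 and 5.39 against 5.02 to 5.18 (median 5.15), a rise of 0.24 (adjusted p 0.001298) with no overlap. It was the 1 member of the list that stood above all 5 undisturbed times of day (adjusted p 0.005156). Xbp1, the transcription factor of another branch, had a difference of 0.19 that did not pass (adjusted p 0.09102), and Ddit3, the stress-linked factor CHOP, one of 0.07 (adjusted p 0.5515). Hsp90b1, Pdia3, Dnajc3 and Atf4 rose by 0.26, 0.31, 0.23 and 0.16, and these 4 calls were lost without T30S4. Dnajc3 and Atf4 also lost theirs without T30S1 or T30S3, and Hsp90b1 without T30S1.

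**Figure D2:**
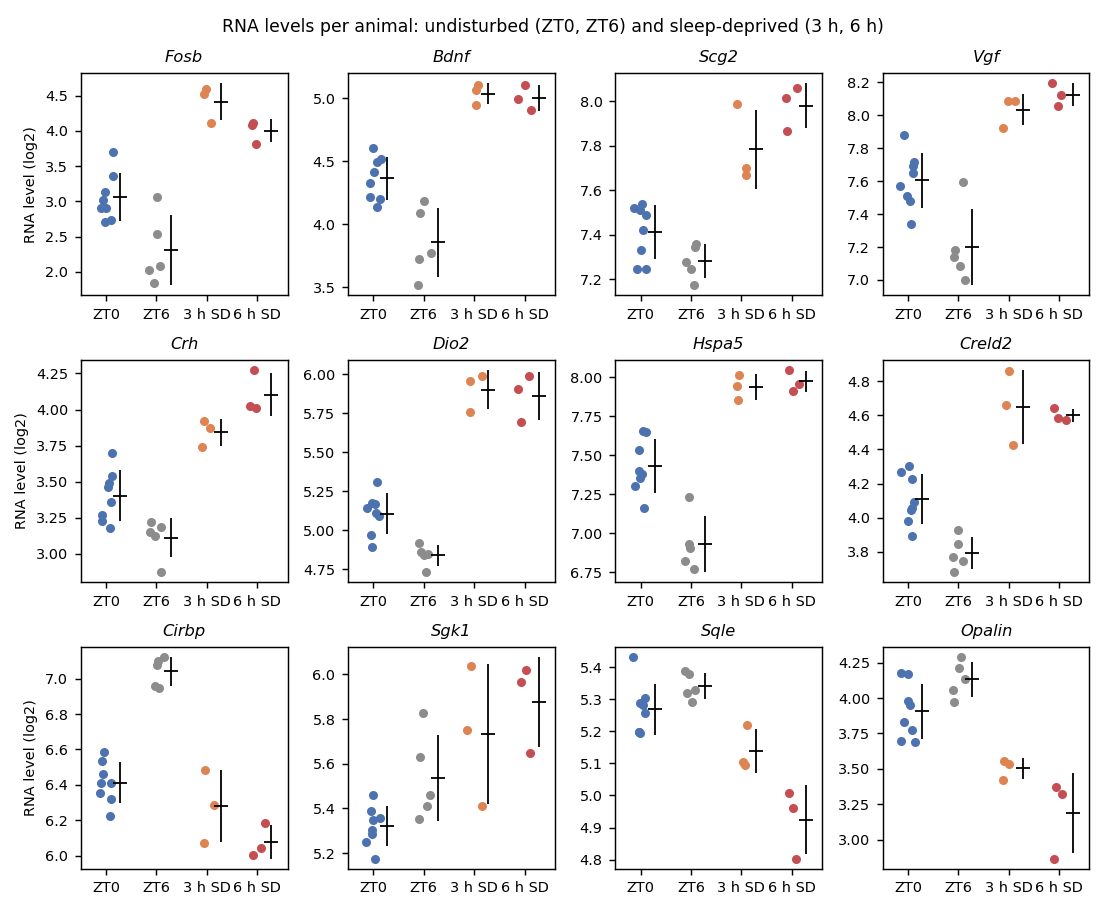
RNA level (log2, y axis) of 12 genes in single animals at ZT0, ZT6, after 3 h and after 6 h of sleep deprivation (SD); points are animals, crosses the mean and SD. For Hspa5 the 3 animals after 6 h sit between 7.92 and 8.05, above all ZT0 animals, and for Opalin between 2.87 and 3.37, below all of them.

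The cytosolic heat shock list, chaperones governed by heat shock factors, had 3 of 23 members higher and none lower, with a median of 0.12. Hspb1, the small heat shock protein Hsp27, was at 4.05, 4.05 and 4.10 after deprivation and at 2.86 to 3.49 (median 3.06) at ZT0. The groups were well apart, at 1.93-fold (log2 0.95, SE 0.16, adjusted p 9.287e-05). Hsph1, an Hsp110 chaperone, rose by 0.27 and Hspa8, the constitutive Hsc70, by 0.22. Both calls were lost without T30S4, at adjusted p 0.09542 and 0.2124. The heat shock element (GAA, TTC and GAA, each 2 bases apart) occurred in the windows of 4 of 19 list genes (21.1%), against 0.585% of measured genes. These were Hsph1 and, not called, Chordc1, Hspd1 and Hspe1. The window of Hsph1 is shown for its match on the opposite strand, in capitals, 36 to 48 bases after the start.
Hsph1 (chr5:149636287-149636586, minus strand): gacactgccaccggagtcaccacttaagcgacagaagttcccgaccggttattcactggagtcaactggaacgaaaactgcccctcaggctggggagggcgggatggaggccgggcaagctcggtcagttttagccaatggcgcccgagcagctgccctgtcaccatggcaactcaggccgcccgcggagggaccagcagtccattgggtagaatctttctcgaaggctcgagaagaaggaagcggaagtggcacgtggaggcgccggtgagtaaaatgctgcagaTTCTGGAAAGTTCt

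Both cold-inducible RNA-binding proteins, whose RNAs track brain temperature, were lower. Cirbp was at 6.01, 6.19 and 6.04 against 6.22 to 6.59 (median 6.41), just below the ZT0 animals, and fell by 0.34 (adjusted p 0.003868). Rbm3 was at 6.78, 6.81 and 6.74 against 6.87 to 7.29 (median 7.02), and fell by 0.31 (adjusted p 0.01927). The Rbm3 call was lost without T30S4, T30S1 or the ZT0 animal T0N5. Undisturbed mice moved the other way over the same hours, with ZT6 means of 7.04 for Cirbp and 7.53 for Rbm3.

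Of 30 activity-dependent genes measured, 8 were higher after deprivation than at ZT0 and none was lower, with a median of 0.48. The list holds immediate early genes, which neurons transcribe within minutes of firing. Without T30S4 3 were called (Fosb, Fosl2 and Bdnf). With batch 1 alone 2 were called. Against ZT6, 28 of the 30 were higher with a median of 1.18, and from ZT0 to ZT6 in undisturbed mice 25 fell.

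Fosb, an AP-1 transcription factor, was at 4.08, 3.82 and 4.11 against 2.70 to 3.71 (median 2.97), above all ZT0 animals and 1.94-fold higher (log2 0.95, SE 0.19, adjusted p 0.001651). Fosl2, of the same family, was at 4.87, 4.50 and 4.73 against 3.64 to 4.48 (median 4.03), close to the highest ZT0 animal, and rose by 0.73 (adjusted p 0.004597). With batch 1 alone its difference was 0.66 at an adjusted p of 0.056. Bdnf, the neurotrophin that strengthens synapses, was at 4.91, 4.99 and 5.11 against 4.14 to 4.61 (median 4.37), clear of the ZT0 range, and rose by 0.64 (adjusted p 8.762e-05). The other rises were those of Tiparp (0.61), Klf4 (0.52), Nptx2 (0.49), Gadd45b (0.45) and Crem (0.33). These 5 calls were lost without T30S4, Nptx2 and Gadd45b also without T30S3, and Tiparp, Klf4 and Gadd45b also without T30S1. Leaving out the ZT0 animals T0N5 or T0N3 ended the calls of Tiparp, Klf4 and Gadd45b, T0N8 or T0N1 those of Tiparp and Gadd45b, and J70N1 that of Tiparp.

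The best known members did not pass. Arc, which removes AMPA receptors from synapses, was at 8.54, 8.22 and 8.56 after deprivation and at 6.73 to 8.63 (median 7.93) at ZT0, so the deprived animals lay inside the ZT0 range. Its log2 difference of 0.66 had a 95% interval of -0.58 to 1.91 (adjusted p 0.63). Fos was at 6.36, 5.93 and 6.02 against 4.56 to 6.11, with overlap, and differed by 0.93 (interval -0.08 to 1.94, adjusted p 0.3227). Egr1 was at 8.54, 8.34 and 8.59 against 8.13 to 9.09, with a difference of 0.08 (interval -0.47 to 0.63). Junb (0.84), Npas4 (0.78), Nr4a1 (0.57), Egr3 (0.46) and Homer1 (0.40) did not pass either. Against ZT6, the differences of Arc (3.28), Fos (2.67), Egr1 (1.42) and Npas4 (1.46) all passed. Leaving out the ZT0 animal T0N2 brought Npas4, Egr3 and Sik1 (0.71, adjusted p 0.0601 with all animals) past the threshold.

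Feedback regulators of MAP kinase signalling, such as the dual-specificity phosphatases, were mostly not called. Of 15 measured, only Spred3, an inhibitor of Ras signalling, was higher (0.27, adjusted p 0.04809), a call lost without T30S1, T30S3 or T30S4 and without any of the ZT0 animals T0N5, J70N1, T0N8, T0N3 and J70N2. The median was 0.21. Dusp4 differed by 0.54 (adjusted p 0.07279) and passed without T0N2 or T0N9. Dusp1 differed by 0.65 (adjusted p 0.3837).

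Of 17 measured genes for neuropeptides and proteins of the dense-core vesicle, 7 were higher after deprivation than at ZT0 and none was lower, with a median of 0.19, with 5 called without T30S4 and 4 with batch 1 alone. Granins and peptide precursors are packed into dense-core vesicles and released during sustained firing. The cAMP response element TGACGTCA, read the same on both strands, occurred in the windows of Chgb, Scg2 and Sst among 13 list genes (23.1%), against 3.57% of measured genes, and of these Chgb and Sst were not called. In the activity-dependent list it was in 2 of 24 windows (8.33%), those of Btg2 and Maff, neither among the called genes. Of 11 named genes higher than ZT0 with a window, 2 held it, Scg2 and Dio2. Their windows are shown for that reason, with the element in capitals, at positions -68 to -61 and -95 to -88 from the start.
Scg2 (chr1:79439977-79440276, minus strand): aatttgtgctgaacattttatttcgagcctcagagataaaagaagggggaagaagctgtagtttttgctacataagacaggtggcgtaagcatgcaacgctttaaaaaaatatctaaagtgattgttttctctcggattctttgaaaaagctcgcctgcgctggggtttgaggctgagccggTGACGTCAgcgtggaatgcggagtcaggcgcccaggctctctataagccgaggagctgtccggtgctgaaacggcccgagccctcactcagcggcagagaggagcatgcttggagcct
Dio2 (chr12:90738989-90739288, minus strand): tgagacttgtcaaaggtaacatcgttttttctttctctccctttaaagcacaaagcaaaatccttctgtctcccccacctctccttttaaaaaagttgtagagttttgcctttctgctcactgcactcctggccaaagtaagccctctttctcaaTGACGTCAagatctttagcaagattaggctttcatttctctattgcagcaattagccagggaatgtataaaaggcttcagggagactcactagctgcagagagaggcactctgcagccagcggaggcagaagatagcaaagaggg

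Scg2, secretogranin II, was at 7.87, 8.02 and 8.06 after deprivation against 7.25 to 7.54 (median 7.46) at ZT0. The groups did not overlap, and Scg2 was 1.5-fold higher (log2 0.58, SE 0.08, adjusted p 4.93e-06). Vgf, a granin-like neuropeptide precursor, was at 8.05, 8.12 and 8.19 against 7.34 to 7.88 (median 7.61), also apart, and rose by 0.52 (adjusted p 0.0004471). Crh, corticotropin-releasing hormone, which cortical interneurons make, was at 4.01, 4.02 and 4.27 against 3.18 to 3.70 (median 3.41), and was 1.64-fold higher (log2 0.71, adjusted p 4.715e-05). Scg2, Vgf and Crh also exceeded all 5 undisturbed times of day, with adjusted p of 7.02e-05, 0.002741 and 0.0001493.

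Vip, a peptide of a class of cortical interneurons, was at 6.27, 6.24 and 6.32 against 5.77 to 6.10 (median 5.88), above all ZT0 animals, and rose by 0.36 (adjusted p 0.001379). Adcyap1, the precursor of PACAP, rose by 0.43 (adjusted p 0.01156), a call lost without T30S3. Pnoc, the nociceptin precursor, rose by 0.29 and Chga, chromogranin A, by 0.19, and both calls were lost without T30S4 or T30S3. Pnoc also lost its call without T30S1, T0N3 or T0N1, and Chga without T0N5, J70N1, T0N8, T0N3 or T0N2.

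Dio2, the deiodinase of astrocytes that turns thyroxine into active thyroid hormone, was at 5.90, 5.69 and 5.99 against 4.89 to 5.31 (median 5.12). The gap between the groups was wide, at 1.69-fold (log2 0.75, SE 0.09, adjusted p 3.645e-07), and Dio2 also stood above all 5 undisturbed times (adjusted p 0.0001156). Cbln4, a secreted synapse organizer, was at 4.61, 4.86 and 5.15 against 3.88 to 4.40 (median 4.17), without overlap, and rose by 0.75 (adjusted p 0.0002515). Pglyrp1, a peptidoglycan-binding protein of innate immunity, was at 4.12, 3.99 and 4.31 against 3.11 to 3.57 (median 3.36), and rose by 0.80 (adjusted p 8.157e-05). Lfng, the glycosyltransferase that modifies Notch, rose by 0.66 with levels of 3.94, 3.64 and 3.90 above a ZT0 range of 2.91 to 3.38, and its ZT6 mean of 3.49 lay between the groups.

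Of 17 measured genes that glucocorticoids induce, 10 were higher than at ZT0 and 1 lower, with a median of 0.33. Gentle handling is known to raise corticosterone in mice, and the hormone also rises daily before the dark phase. Without T30S4, 6 of the 10 were called, and with batch 1 alone 8 genes of the list were higher. The glucocorticoid response element (GNACA and TGTNC, 3 bases apart) occurred in the windows of Map3k6, Mt1 and Sgk1 among 16 list genes (18.8%), against 0.41% of measured genes, and of these Mt1 was not called. The window of Sgk1 is shown, with the element in capitals at positions -188 to -176 from the start.
Sgk1 (chr10:21993640-21993939, plus strand): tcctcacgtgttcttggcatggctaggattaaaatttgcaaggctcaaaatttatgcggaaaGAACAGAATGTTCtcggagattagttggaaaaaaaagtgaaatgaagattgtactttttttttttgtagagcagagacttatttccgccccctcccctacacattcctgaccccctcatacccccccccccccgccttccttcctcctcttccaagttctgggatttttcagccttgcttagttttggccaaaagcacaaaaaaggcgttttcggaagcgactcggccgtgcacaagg

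Sgk1, a kinase that acts on ion channels, was at 5.97, 5.65 and 6.02 against 5.18 to 5.46 (median 5.33), with no overlap, and was 1.47-fold higher (log2 0.56, SE 0.11, adjusted p 0.0008671). Tsc22d3, the leucine zipper protein GILZ, was at 6.67, 6.34 and 6.66 against 5.97 to 6.15 (median 6.05), clear of ZT0, and rose by 0.50 (adjusted p 5.393e-06). Fkbp5, a cochaperone of the glucocorticoid receptor, was at 4.46, 4.36 and 4.67 against 3.79 to 4.11 (median 3.99), and rose by 0.53 (adjusted p 0.001236). Undisturbed ZT6 mice had means of 5.54, 6.07 and 4.02 for these 3 genes, and the deprived mice passed the test against that hour too, at adjusted p 0.01885, 9.023e-07 and 0.0007249. Gpd1, glycerol-3-phosphate dehydrogenase, rose by 0.33 and exceeded all 5 undisturbed times (adjusted p 0.001646).

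Cdkn1a, the cell cycle inhibitor p21, rose by 0.62 (adjusted p 0.01262), with levels of 5.17, 5.19 and 5.40 against 4.33 to 5.04, and this call was lost without T30S4 (adjusted p 0.1347). Plin4 (0.66), Klf9 (0.24) and Map3k6 (0.43) rose too and were not called without T30S4, Map3k6 also not without T30S1. Nfkbia, the inhibitor of NF-kappaB, rose by 0.34 and lost its call without T30S1 (adjusted p 0.06485). Pdk4, which restrains pyruvate oxidation, was the 1 lower member, at 2.96, 2.82 and 2.68 against 2.88 to 3.44, with overlap. Its fall of 0.33 (adjusted p 0.02715) was lost without T30S4, T30S3 or T0N2.

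Hif3a, a hypoxia-inducible factor subunit that glucocorticoids also induce, was at 2.16, 2.14 and 2.13 against 0.81 to 1.34 (median 1.23). The deprived animals were tightly grouped above all ZT0 animals, at 2-fold (log2 1.00, SE 0.16, adjusted p 4.208e-05). Undisturbed ZT6 mice spanned 1.59 to 2.22, and the difference to them, 0.31, did not pass (adjusted p 0.1449). Chromatin accessibility, measured by ATAC-seq in the same animals as reads cut by a transposase in open chromatin, rose at a peak inside this gene (mm10, chr7:17058086-17058738). The peak centre lies 4015 bases into the gene from its RefSeq start at 17062427, on the minus strand. Its normalized signal was 17.10, 15.02 and 14.56 in the deprived mice, 5.01 to 9.39 (median 7.40) at ZT0 and 8.32 to 10.0 at ZT6.

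The peak signal of each deprived animal exceeded that of every undisturbed animal at either time. In limma on log2 signals the difference from ZT0 was 0.99 (SE 0.18, adjusted p 0.0159), and that from ZT6 was 0.69 (adjusted p 0.0278). The call against ZT0 was lost with batch 1 alone (adjusted p 0.0728), without T30S1 (0.152), without T30S3 (0.0685) and without T0N5 (0.0629), while the log2 difference stayed between 0.93 and 1.02.

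**Figure D3:**
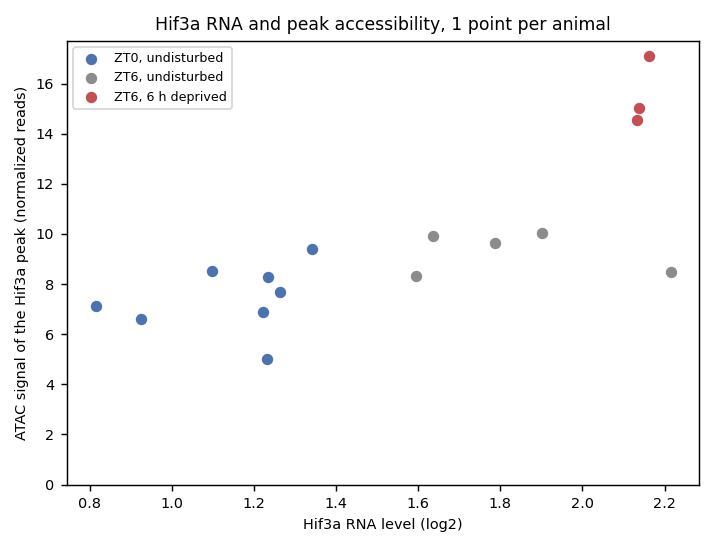
Normalized ATAC signal of the peak inside Hif3a (y axis, from 0) against the Hif3a RNA level (x axis, log2), 1 point per animal at ZT0, at ZT6 and after 6 h of deprivation. The 3 deprived animals lie at signals of 14.6 to 17.1, above all undisturbed animals, while their RNA levels overlap those at ZT6.

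Elsewhere accessibility hardly separated the deprived animals from ZT0. Of 130727 peaks 5 were higher (0.00382%) and 3 lower (0.00229%), 0.00612% in all, and 9561 had an unadjusted p below 0.05. Against ZT6, 2847 peaks were higher (2.18%) and 558 lower (0.427%), 2.6% in all. Within 20 kb of the 27 genes named for the largest differences from ZT0, or from both ZT0 and ZT6, lay 210 peaks. Of these none was called in limma and 18 had an unadjusted p below 0.05. Around 357 list genes with a position lay 3744 peaks, with the Hif3a peak as the only call and 243 (6.49%) at unadjusted p below 0.05, beside 7.31% of all peaks. The other 7 called peaks, named after their values were seen, had Cntnap4, Tenm4, Cdrt4 and Ints8 (higher) and Rgs7, AI593442 and Il1r2 (lower) as their nearest genes. Distances were taken from the peak centre to the span of the nearest protein-coding gene. The centres of the Ints8 and Rgs7 peaks lay inside the gene. The Il1r2 peak reached into its gene, with its centre 85 bp outside. The distance was 25368 bp for Cdrt4, 82145 bp for AI593442, 367788 bp for Cntnap4 and 412670 bp for Tenm4. At the peak 367788 bp from Cntnap4, signals were 21.7, 18.5 and 25.0 against 7.18 to 14.1 at ZT0. The ATAC calls shifted with single libraries. Without T30S1, T30S3, T30S4 or T0N5 1 peak was higher, without J70N1 2, and without J70N2, T0N2, T0N3 or T0N8 3. The lower peaks numbered 17 without T30S4, 6 without T30S1 and 0 without T0N5, and with batch 1 alone no peak was called.

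Of 22 RNAs of cholesterol synthesis, 10 were lower than at light onset and none was higher, with a median of -0.23. The pathway runs from acetyl-CoA through mevalonate and squalene to cholesterol and is under the control of SREBP2, which cholesterol itself restrains. With batch 1 alone 5 were lower, and without T30S4 only Sqle was called. Of the genes named here, Hmgcs1, Fdps and Fdft1 lost their calls without T30S1, and Stard4 without T30S3. Among the ZT0 animals, leaving out T0N2, J70N1 or J70N2 ended the call of Fdps, and leaving out T0N3 those of Fdps and Stard4. The sterol regulatory element TCACNCCAC was found in the window of 1 of 15 list genes (6.67%), Hmgcs1, against 1.43% of measured genes. It is shown in capitals, at positions -137 to -129 from the start.
Hmgcs1 (chr13:119690101-119690400, plus strand): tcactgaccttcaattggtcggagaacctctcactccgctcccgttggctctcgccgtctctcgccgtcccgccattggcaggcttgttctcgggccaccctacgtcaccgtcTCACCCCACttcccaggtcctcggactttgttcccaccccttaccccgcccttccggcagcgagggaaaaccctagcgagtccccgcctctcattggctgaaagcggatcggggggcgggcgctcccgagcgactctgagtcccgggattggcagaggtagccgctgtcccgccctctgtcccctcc

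Sqle, squalene epoxidase, a rate-controlling step, was at 4.96, 5.01 and 4.80 after deprivation against 5.20 to 5.43 (median 5.27). All deprived animals were below all ZT0 animals, and Sqle fell by 0.35 (SE 0.06, adjusted p 9.287e-05), 1.27-fold higher at ZT0. Msmo1, the sterol C4-methyl oxidase, was at 6.11, 6.15 and 5.99 against 6.19 to 6.68 (median 6.46), barely apart, and fell by 0.36. Insig1, which holds the SREBP complex in the ER, was at 5.52, 5.47 and 5.34 against 5.61 to 6.02 (median 5.89), and fell by 0.40. Without T30S4 the differences of these last genes were -0.32 and -0.35, at adjusted p 0.06558 and 0.09809. Hmgcs1, the cytosolic HMG-CoA synthase, fell by 0.27 with overlapping groups. In undisturbed mice at ZT6, the means of Sqle (5.34), Msmo1 (6.49) and Insig1 (6.19) were above their deprived levels.

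Of 23 genes of glycolysis and glucose uptake, 2 were higher and 2 lower, beside 3.11% and 2.36% of all genes. Slc2a1, the glucose transporter of the blood-brain barrier and astrocytes, was at 6.16, 5.94 and 6.15 against 5.61 to 5.85 (median 5.68), above every ZT0 animal, and rose by 0.39 (adjusted p 0.0002515). Pfkfb3, an activator of glycolysis, rose by 0.31, while the monocarboxylate transporters Slc16a3 and Slc16a1 fell by 0.50 and 0.20. Those 3 calls were lost without T30S4, which left only that of Slc2a1. Pfkfb3 was also lost without T30S3 or T0N5, Slc16a3 without T30S1, and Slc16a1 without T30S1, T30S3 or T0N3. The median of the 23 genes was -0.03.

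Of 21 clock and clock output genes, 3 were higher and 2 lower than at ZT0, with a median of 0.12. These genes cycle through the day in most tissues. Cry1, a repressor of the clock loop, was at 3.40, 3.38 and 3.52 against 3.85 to 4.05 (median 3.97), without overlap, and fell by 0.53 (adjusted p 9.691e-06). Undisturbed ZT6 mice had a mean of 3.26, and the deprived animals did not pass the test against it (adjusted p 0.1002). Nr1d1, the repressor REV-ERB alpha, was at 6.58, 6.62 and 6.64 against 5.71 to 6.18 (median 6.00), and rose by 0.63 (adjusted p 9.287e-05), short of the ZT6 mean of 6.95 by 0.33.

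Nr1d2 and Csnk1d rose by 0.23 and 0.14 and Tef fell by 0.17, calls that were lost without T30S4 or T30S3. For Nr1d2 and Tef they were also lost without T30S1, T0N5 or T0N1, for Nr1d2 without J70N1, J70N2 or T0N2, for Tef without T0N8 or T0N9, and for Csnk1d without T0N3. Per1 (0.48, adjusted p 0.1824), Per2 (-0.11, adjusted p 0.7911) and Dbp (0.21, adjusted p 0.355) did not pass against ZT0. Per2 is a clock repressor that also follows wake. It was at 4.28, 4.27 and 4.41, inside the ZT0 range of 4.04 to 4.72, while undisturbed mice had fallen to a mean of 3.35 by ZT6. Dbp, a clock output factor, was at 5.52, 5.75 and 5.53, near the ZT0 range of 5.06 to 5.70, while undisturbed mice had risen to 6.56.

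Myelin markers were among the falling genes. Opalin, a membrane protein of oligodendrocyte myelin, was at 3.32, 3.37 and 2.87 against 3.69 to 4.18 (median 3.89). The groups did not overlap, with ZT0 1.66-fold higher (log2 -0.73, SE 0.12, adjusted p 8.742e-05). Of 12 oligodendrocyte markers 3 were lower and none higher (median -0.23): Opalin, Aspa (-0.38), which splits N-acetylaspartate, and Mog (-0.36), a protein of the outer myelin layer. Without T30S4 only Opalin was called, with batch 1 alone 1 gene was, and the Mog call was lost also without T0N5, J70N2 or T0N2. The summed level of the 12 markers was 1865 to 2504 in the deprived mice and 2275 to 3068 at ZT0, with overlap, and none was at 0. Undisturbed ZT6 mice had sums of 2107 to 2736, which overlapped both. The list median was -0.13 from ZT0 to ZT6 in undisturbed mice, where 2 of the 12 fell. For deprived mice against ZT6 it was -0.06, with 4 of the 12 lower. The part of this list's level in the other results was not tested.

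The 13 microglia markers had a median difference of -0.02, and 6 of them differed upwards. Of the 13, 3 were lower, among them Trem2 (-0.38) and P2ry12 (-0.21), and none was called without T30S4. Trem2 was also lost without T30S1, and P2ry12 without T30S3 or T0N5. The summed microglia level was 443.8 to 463.1 after deprivation and 441.8 to 471.2 at ZT0, inside the same range. The 12 astrocyte markers had a median of -0.02, with 5 differing upwards. Among them Sox9 fell by 0.31, a call lost without T30S1, T30S3 or T0N2. Among precursor markers Olig2 rose by 0.28 and Sox10 fell by 0.39, calls lost without T30S3 and T30S4 respectively. Among endothelial markers Cldn5, the tight junction protein, fell by 0.44 and Ly6c1 rose by 0.26. Cldn5 lost its call without T30S1, and Ly6c1 without T30S1, T30S4, T0N5, J70N1, J70N2, T0N1 or T0N9. Of inhibitory neuron markers only Vip, already given, was called, and lists for excitatory neurons, mural cells, meninges, choroid plexus, blood and neighbouring brain regions held none.

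The remaining named falls were of varied function. Sytl2, a Rab27 effector in vesicle traffic, was at 5.39, 5.48 and 5.34 against 5.72 to 5.95 (median 5.84), well apart, and fell by 0.43 (adjusted p 9.691e-06). It lay below all 5 undisturbed times of day (adjusted p 6.784e-05). Rccd1 (-0.48), Trim59 (-0.55) and Cln6, an ER membrane protein (-0.42), fell at adjusted p 5.395e-05, 0.0009152 and 0.001653 in limma. Lack of overlap with ZT0 was a condition for naming these genes, Sytl2 included. Tnnt2 (-0.42), Myo16 (-0.40), Arsg (-0.39), Hes5, a target of Notch (-0.54), and Grp, gastrin-releasing peptide (-0.49), fell as well. Calls were lost without T30S4 for Arsg, Hes5 and Grp, without T30S1 for Hes5 and Myo16, without T30S3 for Myo16 and without T0N1 for Grp.

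Beyond both ends of the 6 h, meaning past the ZT0 and the ZT6 level in the same direction, 316 genes were higher (2.28%) and 223 lower (1.61%). Without T30S4 these counts were 81 and 38, and without T30S1 210 and 104. The lower count was 132 without T30S3 and 137 without T0N5. Over all genes, 316 of the 430 called higher than ZT0 and 223 of the 327 called lower were in this class. From the lists it held all 8 called immediate early genes, all 15 ER genes and 5 of the 7 neuropeptides. It also held 8 of the 10 higher glucocorticoid targets and 7 of the 10 lower cholesterol genes. In undisturbed mice 25 of 30 immediate early genes and 15 of 23 ER genes fell from ZT0 to ZT6. A rise over ZT0 therefore left most of them above ZT6 too. Hif3a, Lfng, Nr1d1 and Cry1, called against ZT0, did not pass here, with adjusted p of 0.3734, 0.09753, 1 and 1. Of the genes in the class, Fosl2 was lost from it without T30S1 or T30S4, Cdkn1a, Insig1, Arsg and Trim59 without T30S4, Aspa without T30S3 or T30S4, and Myo16 without T30S1 or T30S3.

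Past all 5 undisturbed times (ZT0, ZT3, ZT6, ZT12 and ZT18) stood 53 genes above (0.383%) and 23 below (0.166%). Without T30S4 the counts were 9 and 4, without T30S3 30 and 14, and with batch 1 alone 13 and 2. Without T30S1 6 lay below. Whether a single gene kept its place in this class with an animal left out was not recomputed. The lists contributed 4 immediate early genes, 3 neuropeptides, 2 glucocorticoid targets, 1 ER gene and, below, 1 microglia marker, Trem2. Fosb, Bdnf, Scg2, Vgf, Crh and Dio2 belonged to this class, and their levels after 3 h of deprivation were already above every undisturbed group mean.

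**Figure D4:**
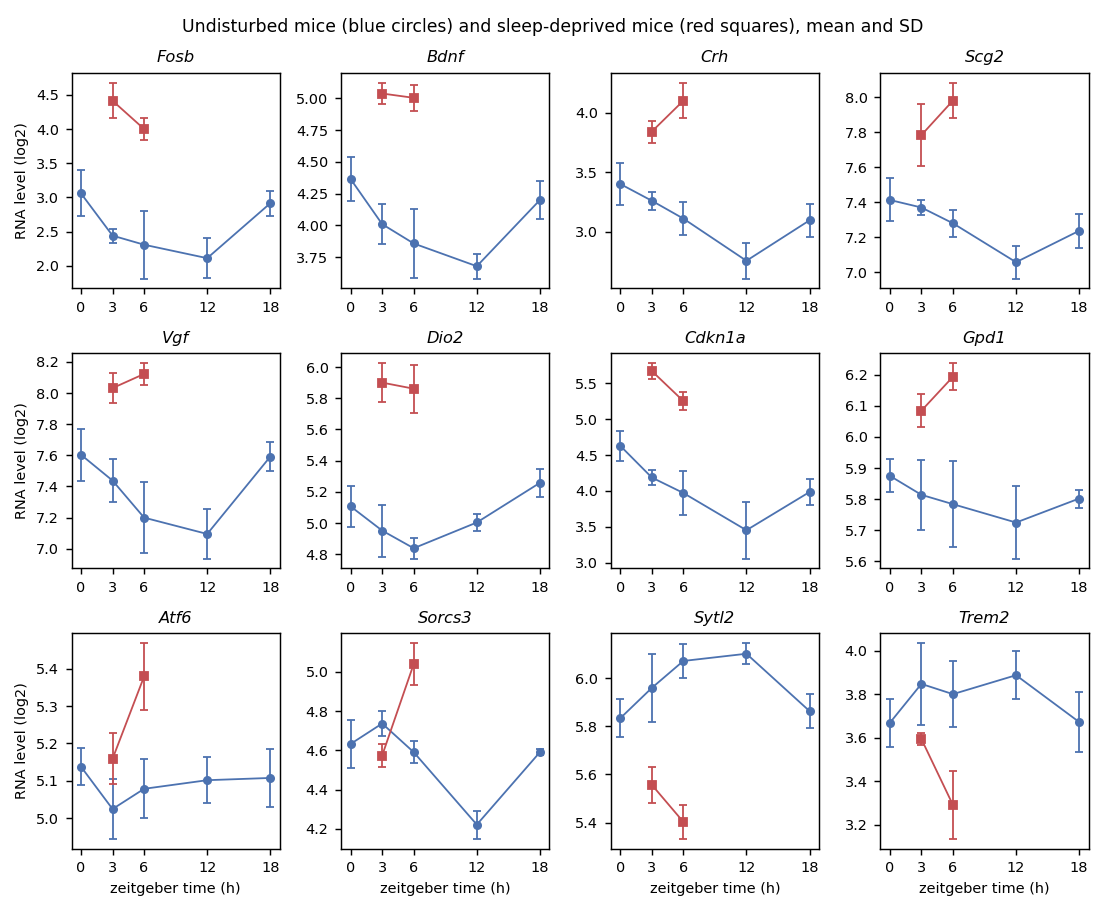
RNA level (log2, y axis) over zeitgeber time (h, x axis) of 12 genes that stood past all 5 undisturbed times after 6 h of deprivation; circles are undisturbed mice, squares mice deprived for 3 or 6 h, bars the SD. Scg2 after 6 h lies at 7.87 to 8.06 in single animals against 7.25 to 7.54 at ZT0, and Sytl2 lies below all undisturbed means.

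Other genes stood near their light onset level after 6 h, whatever their level at 3 h, which was not used. A gene counted as held when the 90% interval of its difference from ZT0 stayed within 0.25 on the log2 scale while it differed from ZT6 and ZT6 differed from ZT0. The daily fall was absent in this sense for 795 genes (5.74%) and the daily rise for 822 (5.94%). With batch 1 alone the counts were 337 and 334. No single library moved either count by more than 1.5-fold, with ranges of 550 to 802 and 580 to 838.

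Rbm24, an RNA-binding regulator of splicing, was at 4.10, 3.72 and 4.12 after deprivation, at 3.70 to 4.15 (median 3.94) at ZT0 and at 3.15 to 3.68 at ZT6. The deprived animals lay within the ZT0 range and above the ZT6 range, with differences of 0.05 from ZT0 and 0.64 from ZT6 (adjusted p 4.905e-05). Tra2a, another splicing factor, differed by 0.06 from ZT0 and by 0.50 from ZT6. Hivep3 and Hivep1, zinc finger factors of one family, differed by 0.10 each from ZT0 and by 0.56 and 0.50 from ZT6. Il17ra, the interleukin 17 receptor, differed by 0.04 and 0.55.

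Among the genes whose daily rise was absent, Dcst1 was at 3.05, 3.28 and 3.23 against 3.13 to 3.53 at ZT0 and 3.67 to 4.00 at ZT6. It thus lay near the ZT0 range and below all ZT6 animals, with a difference of -0.67 from ZT6 (adjusted p 1.082e-09). Bhlhe41, the clock repressor DEC2, was at 4.16, 4.06 and 4.19, inside the ZT0 range of 4.02 to 4.33 and below the ZT6 range of 4.46 to 4.79 (difference -0.52, adjusted p 0.0002925). Rasl11b, a Ras-like GTPase, differed by -0.09 from ZT0 and by -0.53 from ZT6, and Lgi2, a secreted synaptic protein, by -0.15 and -0.50.

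**Figure D5:**
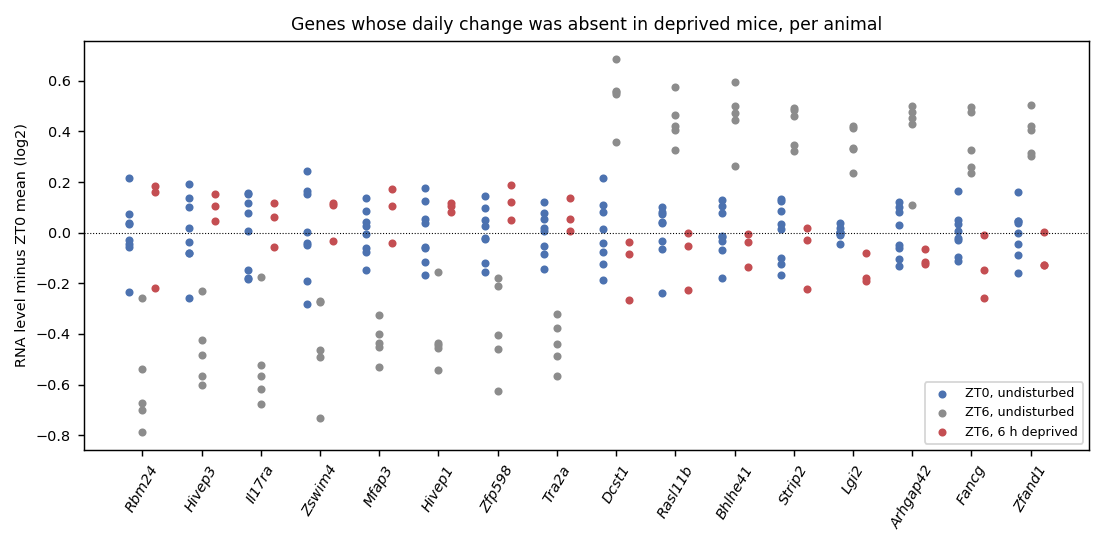
RNA level minus the ZT0 mean (log2, y axis) for the 16 named genes whose daily change was absent (x axis), per animal at ZT0, at ZT6 and after 6 h of deprivation. Deprived animals cluster around 0 with the ZT0 animals, while ZT6 animals lie below for genes such as Rbm24 and above for genes such as Dcst1.

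Between 3 h and 6 h of deprivation little was called. One gene was higher at 6 h (0.00722%) and 4 were lower (0.0289%), 0.0361% in all, while 1084 had an unadjusted p below 0.05. The higher count was 6 without T30S1, 5 without T27S3 (an animal deprived for 3 h) and 3 without J70N1, and the lower one 2 without T30S3 or T30S4 and 1 without T27S5. In a fit of these 2 groups alone, the calls of Sorcs3, Rfx4, Cry1, Nes and Pdk4 were all lost, at adjusted p 0.1724 to 0.3492. Sorcs3, a sorting receptor of the VPS10 family at postsynaptic sites, was at 4.94, 5.03 and 5.15 after 6 h and at 4.64, 4.57 and 4.52 after 3 h, with no overlap, and rose by 0.47 (adjusted p 0.0005945). Its ZT0 animals spanned 4.45 to 4.84, and the rise over ZT0 was 0.40 (adjusted p 5.482e-05).

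Rfx4, a transcription factor of astrocytes and neural progenitors, was at 3.04, 3.09 and 3.14 after 6 h and at 3.86, 3.44 and 3.58 after 3 h. It had risen over ZT0 by 0.62 at 3 h (adjusted p 2.115e-07) and was at 0.09 from ZT0 at 6 h (adjusted p 0.5749). Nes, the intermediate filament nestin, and Pdk4, both outside the naming rule because of their low level, fell by 0.63 and 0.52 between 3 h and 6 h, at adjusted p 0.00196 and 0.03407. The Nes call was lost without T30S4 or T27S5, and the Pdk4 call without T30S3, T30S4, T27S2 or T27S5, with batch 1 alone and with the replicate block. Nes had risen over ZT0 by 0.60 at 3 h. Cry1 fell by 0.49 between these times (adjusted p 0.002781), with 3.76, 4.05 and 3.94 after 3 h, and this call was lost without T30S3, T27S3 or T27S5.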

How the data were processed

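RNA levels and ATAC-seq peak signals of mouse cortex were deposited by the authors as 1 table of 13842 genes and 1 of 130727 peaks. RNA values are log2 values, per the deposited table, of levels that sum to 944370 to 1022975 per library once an offset of 0.5 is undone. Kallisto 0.43.0 and sleuth 0.29.0 on GRCm38 are among the tools in the submitters' processing notes, and no source states a scaling by transcript length, so levels were never compared between genes. Values sit at exactly -1 in batch 1 libraries (48) but in none of batch 2, and 23 lie below it, so a batch adjustment before deposit is possible but not stated. ATAC values are a normalized signal, per the deposited table, of reads per peak over MACS2 2.1.1 peaks on mm10, with Bowtie2 and HTSeq 0.6.1 also in the submitters' notes. Whole reads were recovered for 100% of values (tolerance 0.02 reads), 2306487 to 7368070 reads for the ZT0 and deprived libraries. The RNA column of ZT0 animal T0N5 joins 2 libraries of 1 mouse, 1 labelled batch 1 and the other batch 2. It was fitted as batch 1 and kept in the fits with batch 1 alone.

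Animals were grouped by the labels. RNA was fitted with limma 3.58.1 in R 4.3.3 (trended prior, 1 mean per group over all 62 libraries, batch as a term, 44 residual degrees of freedom), two-sided, with Benjamini-Hochberg adjustment over all genes and a threshold of 0.05. Folds are on the scale with the offset and understate changes of low genes. Being past ZT0 and ZT6, or past all 5 undisturbed times, used the largest p of the contrasts. ATAC was fitted likewise on log2(signal + 0.5), with edgeR 4.0.16 on recovered reads as an alternative. Each script was tested on simulated data.

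Named genes were, above the 25th percentile of mean level, the 12 largest non-overlapping calls each way against ZT0, the 10 each way beyond ZT0 and ZT6, the 8 each way among held genes and the 5 each way between 3 h and 6 h, plus list members. The contrast, members and lists were chosen with earlier results of these data known. Motifs also searched in the RefSeq windows were the CArG box, the E-box CACGTG and the AP-1 site TGANTCA, held by 1.59%, 11.5% and 6.11% of measured genes. No genome sequence was used here. Values of some genes that were fitted and counted are not reported here.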

Additional observations from a re-analysis of the deposited data

Results flagged for a closer look

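In the undisturbed groups of 4 to 10 animals, the highest and the lowest animal of each of 122 gene and group combinations was checked against the others of its group with Dixon's test at 95%, and 7 stood apart. Chance alone gives about 1 in 20. All 7 were ZT0 animals. Animal J70N2 was low for Nes, at a log2 level of 2.32, with the others from 2.48. Animal J70N1 was low for Atf6, at 5.02, with the others from 5.13. Animal T0N5 was low for Hsph1, at 7.71, with the others from 7.89. Animal T0N1 was high for Plin4, at 0.89, with the others up to 0.57. Animal T0N3 was high for Sqle, at 5.43, with the others up to 5.30, high for Eprs, at 5.51, with the others up to 5.42, and low for Csnk1d, at 6.41, with the others from 6.50.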

How the results depend on the processing

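Results for single genes were recomputed under 21 alternatives each, and 64 of the 143 called ones passed in every one. Calls past all 5 times were recomputed as counts only, not gene by gene. With batch 1 libraries only, 154 genes rose and 99 fell against ZT0, 108 and 61 were beyond ZT0 and ZT6, 13 and 2 beyond all 5 times, and 337 and 334 were held. With hour 0 controls only, the counts were 211 and 125, 157 and 82, and 33 and 11. With hour 24 controls only, 186 fell, 15 were below all 5 times, and 399 and 397 were held. A fit of the compared groups only gave 145 and 57 against ZT0, 124 and 64 beyond both, and 0 lower and 1 other higher gene between 3 h and 6 h. Without the batch term 35 lay below all 5 times. Filtering low genes left 2 lower between 3 h and 6 h. Egr1 changed sign to -0.039 with batch 1 or the compared groups only, and Nes, not called either, ranged from -0.099 (without T30S1) to 0.025 (without T30S4). The cause was not tested, except that most of these settings use fewer samples.

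Leaving out each animal in turn gave 117 to 459 higher and 71 to 351 lower genes against ZT0, 81 to 362 and 38 to 253 beyond both, 9 to 71 and 4 to 31 beyond all 5 times, 550 to 802 and 580 to 838 held, and 1 to 6 and 1 to 4 between 3 h and 6 h, where the 3 h animals were left out too, a choice made after seeing the data.

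For ATAC, 12 peaks were higher and 10 lower without the batch term, 0 and 0 with batch 1 only, 41 higher with a pseudocount of 4, 2 and 0 with low peaks filtered, and 18 and 0 in edgeR. Leaving out each animal in turn gave 1 to 7 higher and 0 to 17 lower.

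Animal numbers recur across groups, but numbers do not pair the animals: same-numbered deviations correlated at 0.10, 0.02 and 0.002. The replicate block gave 387 higher and 309 lower genes against ZT0, 2 higher between 3 h and 6 h and 2 higher ATAC peaks.

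The limits lie in the 3 deprived animals, all of 1 batch, and in ATAC depths of 3466423 to 4090495 reads in peaks for them.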

Other observations

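Several genes outside the naming rule, picked after their values were seen, also stood past all 5 undisturbed times of day after 6 h of deprivation. The lost calls given for them are those against ZT0. Pcsk1, the convertase that cleaves neuropeptide precursors, was at 5.37, 5.52 and 5.59 against 4.83 to 5.14 at ZT0, with a rise of 0.53 (adjusted p 0.001675 in limma). Ptprn, a membrane protein of dense-core vesicles, rose by 0.30, and its call was lost without T30S4 (adjusted p 0.06439). Inhba, a subunit of activin, was at 3.35, 3.74 and 4.09 against 2.76 to 3.20, and its rise of 0.69 was also lost without T30S4 (adjusted p 0.1248). Sorl1, a sorting receptor of the family that includes Sorcs3, rose by 0.30, a call lost without T30S3 or T30S4. Mapk3, the kinase ERK1, was at 6.21, 6.27 and 6.38 against 6.51 to 6.67, below every ZT0 animal, and fell by 0.31 (adjusted p 0.001791). Rps6ka5, the kinase MSK1, a target of ERK, was at 3.01, 2.94 and 2.82 against 3.10 to 3.28 and fell by 0.28 (adjusted p 0.001537), a call lost without T30S4.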
